A study of Mus musculus with 22 samples.

Results

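The enzymes that make prostaglandins, thromboxane and leukotrienes were followed in sorted lung myeloid cells of mice with lung injury driven by mutant surfactant protein C. They are 10 genes of the 31116 present in the count values of both cell types (55421 genes for monocytes and 31134 for macrophages), taken as a list of named enzymes whose Ensembl identifiers carry the symbols Alox5, Alox5ap, Alox15, Lta4h, Ltc4s, Ptgs1, Ptgs2, Ptges, Hpgds and Tbxas1. The list is defined by name and not by a measured value, although it was drawn up with earlier results of these data known. RNA was sequenced from 22 samples of C57BL/6 mice with the genotype SP-CI73T mutant: 12 of Ly6Chi monocytes (4 control, 4 at 3 d and 4 at 14 d) and 10 of SigF+CD11b- alveolar macrophages (4 control, 3 at 3 d and 3 at 14 d). Both cell types were sorted from lungs that had been lavaged, perfused and digested with collagenase D. The injured mice received tamoxifen by oral gavage. Tamoxifen removes a neomycin cassette through a Flp-O recombinase placed in the Rosa26 locus and raises expression of the mutant protein. That protein is a product of alveolar type II epithelial cells rather than of the sorted cells, and 3 d and 14 d stand for the onset and the peak of injury. The controls carried the same mutant allele with its cassette and are labelled control and untreated, while the study calls the sequenced monocyte controls oil treated mutant mice and its general methods pool such mice with tamoxifen treated mutants that lack the recombinase. All 6 groups carry the mutant allele, so each comparison is between states of mutant mice. The labels do not say whether samples came from separate mice, so the p-values measure only the spread between these samples. Because these are bulk samples, fewer cells of a type and less RNA per cell cannot be told apart.

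Eicosanoids are signaling lipids made from arachidonic acid that phospholipases release from membranes. Cyclooxygenases (Ptgs1, Ptgs2) turn it into prostaglandin H2, from which terminal synthases make prostaglandin E2 (Ptges), prostaglandin D2 (Hpgds) or thromboxane A2 (Tbxas1). The lipoxygenase encoded by Alox5, helped by the membrane protein encoded by Alox5ap, makes leukotriene A4, which Lta4h converts to leukotriene B4, a neutrophil attractant, and Ltc4s to the cysteinyl leukotriene C4. Alox15 encodes another lipoxygenase, linked to the resolution of inflammation and abundant in mouse eosinophils and peritoneal macrophages. Alveolar macrophages are a known source of leukotrienes and of thromboxane.

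Promoter sequence is shown for 4 of these genes, the leukotriene genes Alox5 and Lta4h and both cyclooxygenase genes, to set a pair from each branch of the pathway side by side, a choice made after their values were seen. Ltc4s, whose fall in 14 d macrophages was steeper than that of Alox5 or Lta4h, also had an entry, which held none of the 5 strings searched and is not printed. The sequences are RefSeq promoters on GRCm38.p6, which held an entry for 8 of the 10 genes and none for Alox5ap and Alox15. Each run is the 200 bases before the start of the gene in RefSeq, which for Lta4h lies upstream of the start in the GENCODE annotation used for positions, and is written 5′ to 3′ on the strand of the gene, with 2 letter strings in capitals, GAGGAA (the core recognised by the myeloid factor PU.1, TTCCTC where it lies on the opposite strand) and GGGCGG (the GC box).
Alox5 (chr6:116461179-116461378, minus strand): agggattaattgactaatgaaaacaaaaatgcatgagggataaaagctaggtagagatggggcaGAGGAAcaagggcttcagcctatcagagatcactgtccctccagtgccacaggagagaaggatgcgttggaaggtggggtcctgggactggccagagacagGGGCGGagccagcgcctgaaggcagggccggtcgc
Lta4h (chr10:93453196-93453395, plus strand): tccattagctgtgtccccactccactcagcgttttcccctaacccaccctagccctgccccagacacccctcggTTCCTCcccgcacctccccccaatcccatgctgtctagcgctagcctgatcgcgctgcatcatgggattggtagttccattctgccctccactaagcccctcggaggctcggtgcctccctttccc
Ptgs1 (chr2:36230226-36230425, plus strand): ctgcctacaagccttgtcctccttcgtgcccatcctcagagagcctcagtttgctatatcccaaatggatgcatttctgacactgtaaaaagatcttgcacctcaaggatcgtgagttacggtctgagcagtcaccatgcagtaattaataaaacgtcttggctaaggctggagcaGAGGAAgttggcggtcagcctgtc
Ptgs2 (chr1:150099831-150100030, plus strand): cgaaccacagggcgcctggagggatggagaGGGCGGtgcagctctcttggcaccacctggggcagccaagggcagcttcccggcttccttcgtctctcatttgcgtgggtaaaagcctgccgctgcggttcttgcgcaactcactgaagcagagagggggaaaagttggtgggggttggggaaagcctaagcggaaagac

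On either strand, GAGGAA was present in the windows of Alox5, Lta4h and Ptgs1 but not of Ptgs2, and in 6 of the 8 genes with an entry, against 19% of 32851 promoter windows of the same length. GGGCGG was present for Alox5 and Ptgs2, for 3 of the 8 genes in all and for 31% of windows. Of the other strings searched, TATAAA was in 1 of the 8 (Tbxas1) and in 9.96% of windows, while TGACGT (5.85%) and CACGTG (5.26%) were in none of the 8. The Ptgs1 window held its GAGGAA 24 bases before the start and the Alox5 window 136 bases before it. These are matches of letters only, and no factor binding was measured.

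In the GENCODE annotation of GRCm38 all 10 are protein-coding genes. The leukotriene genes are Alox5 (chr6:116410077-116461178), Alox5ap (chr5:149264767-149288153), Lta4h (chr10:93453411-93484875) and Ltc4s (chr11:50236461-50238616), with the lipoxygenase gene Alox15 (chr11:70344152-70352031) on the chromosome of Ltc4s. The cyclooxygenase genes are Ptgs1 (chr2:36230426-36252272) and Ptgs2 (chr1:150100031-150108227), and the terminal prostanoid synthase genes Ptges (chr2:30889471-30929863), Hpgds (chr6:65117293-65144908) and Tbxas1 (chr6:38875404-39084585). Exonic bases shared with a gene on the other strand numbered 268 for Ltc4s, 189 for Alox5ap, 148 for Ptgs1 and 144 for Tbxas1, and whether counting used the strand is not given in the sources used here, so reads from those bases cannot be told apart.

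Monocyte libraries held 15451460 to 28789639 counts, and macrophage libraries 4610720 to 17074863, with the 14 d macrophages lowest (4610720 to 6838893). Levels are given as CPM, the count of a gene relative to the total of its library, scaled with TMM factors estimated within each cell type, and a gene was called when edgeR's adjusted p was under 0.05 and the fold change above 1.5. The labelled cell types carried their markers: 8 monocyte markers summed to 6778 to 16562 CPM in monocytes against 404 to 604 CPM in macrophages. The 10 alveolar macrophage markers, without Chil3, which monocytes also expressed at 4211 to 20563 CPM, summed to 7301 to 8523 CPM in control macrophages and 7778 to 8503 CPM at 3 d, but to 2560 to 3475 CPM at 14 d, and leaving Chil3 out was decided after its values were seen. In the 14 d samples of both cell types Y-linked genes had 433 to 3033 counts and Xist 1 to 32, whereas in the control and 3 d samples Xist had 552 to 4444 counts and Y-linked genes 0 to 3, so that the 14 d time point and sex cannot be told apart in any comparison below. The 3 d monocytes also stood apart in the number of genes detected (40119 to 41134, against 24775 to 32492 in the other monocytes).

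All 10 genes had enough counts to be tested in each of 9 comparisons. In macrophages at 14 d, 3 of the 10 genes rose (39.4% of the 20944 genes tested were called higher) and 6 fell (22.9% called lower), with a median log2 change of -0.70 over the 10 genes and 0.18 over all genes. None was called in macrophages at 3 d, where 1.05% of genes were called higher and 0.224% lower. Between 14 d and 3 d in macrophages 3 genes rose (36.3% of all genes) and 4 fell (20%).

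In monocytes at 3 d, 2 genes rose (36.8% of 22353 genes tested) and 3 fell (14.4%), with a median of -0.28 against 0.22 over all genes. At 14 d 2 rose (3.22%) and 2 fell (5.34%), with a median of 0.28 against 0.088 over all genes. From 3 d to 14 d 4 rose (12%) and 1 fell (34.5%). The scale mattered for these splits: with library totals alone as the scale, the median of all genes moved by 0.44 in 14 d macrophages and by 0.48 in 3 d monocytes (log2). The members called in 14 d macrophages were then 3 higher and 3 lower, those in 3 d monocytes 2 higher and 2 lower, and those in monocytes between 14 d and 3 d none higher and 1 lower. All genes called in 14 d macrophages split into 8258 higher and 4793 lower on the main scale and into 9786 and 1789 with library totals.

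**Figure D1:**
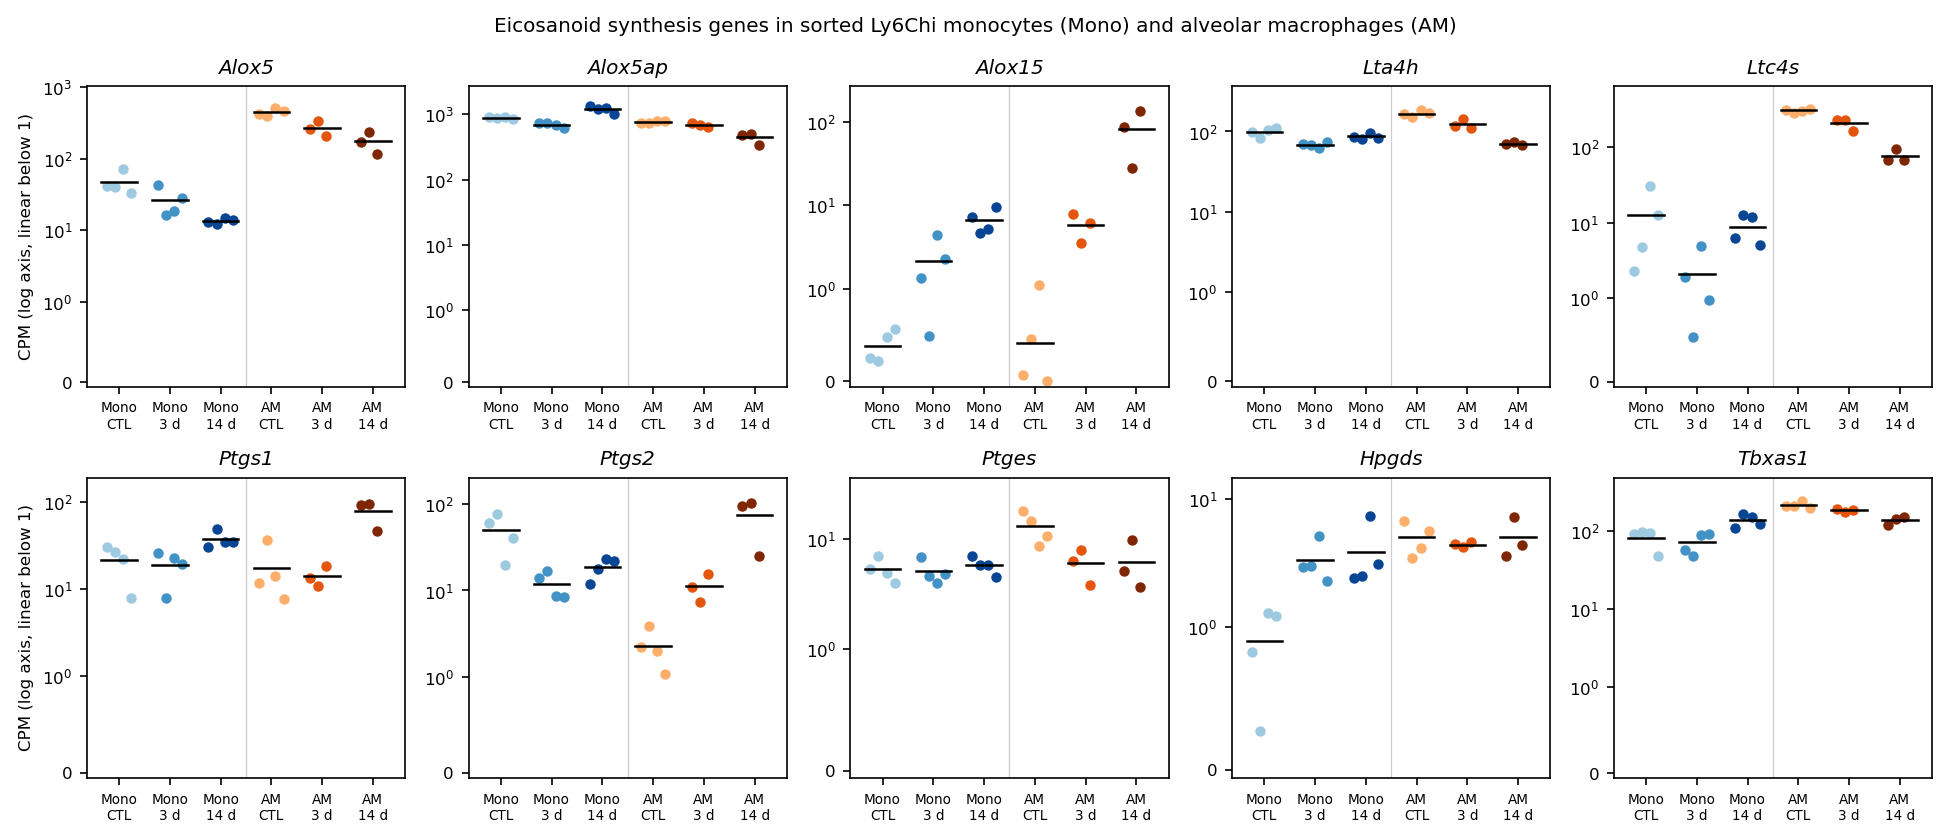
CPM of the 10 genes (y axis, logarithmic above 1 CPM and linear below) in each sample, for control (CTL), 3 d and 14 d monocytes (Mono, blue) and alveolar macrophages (AM, orange to brown). Each point is a sample and each black line a group mean. Alox5 and Ltc4s sit far higher in macrophages than in monocytes, and the macrophage groups of Alox15 and Ptgs2 do not overlap, with control lowest and 14 d highest.

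The leukotriene genes were the most abundant of the set in control alveolar macrophages. Per kilobase of exon, the scale that allows genes to be compared, the order in control macrophages began with Alox5ap (539 ± 21.8 CPM per kb, SD, n = 4), Ltc4s (305 ± 16.5) and Alox5 (109 ± 12.6), which did not overlap with each other. Lta4h (27.2 ± 2.31) and Tbxas1 (23.5 ± 2.19) followed and overlapped, as did Ptgs1 (4.47 ± 3.29) and Ptges (3.32 ± 1.07). Hpgds (0.779 ± 0.230), Ptgs2 (0.496 ± 0.256) and Alox15 (0.167 ± 0.208) were lowest, and neighbours in that order overlapped. In 3 d macrophages the 6 highest genes kept this order. In 14 d macrophages Alox15 (33.8 ± 21.8, n = 3), Ptgs1 (20.1 ± 7.16) and Ptgs2 (16.2 ± 9.26) came next after Alox5 (42.4 ± 14.8), and neighbours overlapped.

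Control monocytes also had Alox5ap highest (628 ± 23.97 CPM per kb, SD, n = 4), but no other gene of the set exceeded 30.1 CPM per kb in any control monocyte sample. Lta4h (16.2 ± 1.89), Ltc4s (12.3 ± 12.6), Alox5 (11.4 ± 4.20), Ptgs2 (10.8 ± 5.49) and Tbxas1 (9.06 ± 2.60) overlapped with their neighbours in that order, as did Ptgs1 (5.61 ± 2.55) with Tbxas1. Ptges (1.35 ± 0.323) lay between them and the lowest genes. Alox15 (0.154 ± 0.0709) and Hpgds (0.140 ± 0.0727) were lowest and overlapped. In 14 d monocytes Tbxas1 (15.0 ± 2.80) and Lta4h (14.2 ± 1.07) came after Alox5ap and overlapped, and Alox5 (3.27 ± 0.245) had moved to the seventh place. Of the summed CPM per kb of the 10 genes, Alox5ap took 88.1 to 91.4% in control monocytes and 52.2 to 54.2% in control macrophages, while Ltc4s took 28.8 to 31.5% in control macrophages and 0.315 to 4.13% in control monocytes.

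Compared in a joint fit of the 22 samples, control macrophages had higher levels than control monocytes of 5 of the 10 genes (24.5% of 26692 genes called higher) and lower levels of 2 (19.7%). Ltc4s was higher by 4.26 on the log2 scale (SE 0.68, edgeR adjusted p = 4.59e-05), Alox5 by 2.90 (SE 0.28, adjusted p = 5.96e-09) and Hpgds by 2.08 (SE 0.43, adjusted p = 0.00022). Tbxas1 (log2 difference 1.02, SE 0.21) and Ptges (0.92, SE 0.29) were also higher. Ptgs2 was the reverse, lower in macrophages by a log2 difference of -4.83 (SE 0.52, adjusted p = 1.36e-07), and Alox5ap was lower by -0.59 (SE 0.13), a fold of 1.5023 that sits at the threshold. These differences use scaling factors common to both cell types and so are not the ratios of the CPM printed here. With library totals as the scale 6 genes were higher and 1 lower, Alox5ap no longer being called, and the cell types were separate count tables whose processing was not compared.

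Alox5, which starts leukotriene synthesis, fell in both cell types. In monocytes its level was 41.3, 40.2, 71.9 and 33.2 CPM in the control samples, 43.1, 16.5, 18.5 and 28.3 CPM at 3 d and 12.97, 12.4, 14.7 and 13.8 CPM at 14 d. In macrophages it was 423, 390, 511 and 458 CPM in controls, 257, 330 and 203 CPM at 3 d and 172, 236 and 115 CPM at 14 d. The 14 d samples lay below every control sample in both cell types, and control and 3 d overlapped in monocytes but not in macrophages. In monocytes Alox5 fell by 0.80 on the log2 scale at 3 d (SE 0.29, edgeR adjusted p = 0.0309) and by 1.80 at 14 d (SE 0.30, adjusted p = 0.0015). In macrophages it fell by 1.34 at 14 d (SE 0.22, adjusted p = 0.00012), and its 3 d difference of -0.76 (SE 0.22, adjusted p = 0.102) was not called. The 14 d calls held in each of the alternatives run. The 3 d call in monocytes was lost in 10 of 21, among them leaving out control sample 3 (71.9 CPM). Alveolar macrophage markers without Chil3 summed to 1476 CPM in that sample, against 568 and 602 CPM in control samples 1 and 2. Control sample 4, the lowest control in Alox5 (33.2 CPM), had 1542 CPM of them. The part of this RNA in the Alox5 level was not tested. The 14 d to 3 d difference in macrophages (-0.59, SE 0.23, fold 1.5007) is at the threshold and was called in 7 of 18 alternatives.

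Alox5ap, whose product presents arachidonic acid to the lipoxygenase, fell in 14 d macrophages, while in monocytes 14 d lay above 3 d. Monocytes had 924, 886, 909 and 846 CPM in controls, 750, 728, 680 and 617 CPM at 3 d and 1364, 1200.2, 1241 and 1013 CPM at 14 d. Macrophages had 736, 741, 787 and 795 CPM in controls, 736, 693 and 650 CPM at 3 d and 487, 507 and 336 CPM at 14 d. In monocytes the 3 groups did not overlap, with 3 d lowest and 14 d highest, and in macrophages the 14 d samples lay below all others. Neither monocyte difference from control passed the fold threshold (-0.35, SE 0.12, edgeR adjusted p = 0.0202 at 3 d, and 0.43, SE 0.12, adjusted p = 0.0321 at 14 d), while 14 d was higher than 3 d by 0.79 (SE 0.12, adjusted p = 0.00074). In macrophages Alox5ap fell by 0.78 at 14 d (SE 0.15, adjusted p = 0.00042). Both of these calls were lost with library totals, upper quartile scaling, TMM factors from abundant genes and a filter at a mean log2 CPM of 1, each of which changed the scale or the set of genes it was estimated on.

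Lta4h, the leukotriene B4 branch, fell in macrophages and stayed within a narrow range in monocytes. In macrophages its levels were 163, 150, 184 and 168 CPM in controls, 116, 143 and 111 CPM at 3 d and 69.4, 74.5 and 67.7 CPM at 14 d. The 3 groups did not overlap. The 14 d samples were lower than controls by a log2 difference of -1.22 (SE 0.14, edgeR adjusted p = 4.99e-06), called in each of 18 alternatives. In monocytes all 12 samples lay between 61.6 and 110 CPM, with the 3 d samples (61.6 to 74.7 CPM) below both other groups and a log2 difference from control of -0.52 (SE 0.13, adjusted p = 0.0048) that did not reach the fold threshold.

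Ltc4s, the leukotriene C4 branch, showed the steepest fall of the leukotriene genes in macrophages. Its levels were 317, 288, 304 and 327 CPM in controls, 228, 231 and 168 CPM at 3 d and 68.0, 94.0 and 67.5 CPM at 14 d. Every 3 d sample lay below every control and every 14 d sample below every 3 d sample. The 14 d samples fell by 2.00 against control (SE 0.17, edgeR adjusted p = 5.99e-07) and by 1.44 against 3 d (SE 0.17, adjusted p = 2.96e-05) on the log2 scale, both called in each alternative, while the 3 d difference of -0.57 (SE 0.16, adjusted p = 0.0921) was not called. Alveolar macrophage markers fell in the same 14 d samples, 7 of 10 being called lower and 0 higher (median log2 change -1.075). Without Chil3 they summed to 2624, 3475 and 2560 CPM in samples 1, 2 and 3, with sample 2 highest as for Ltc4s. The part of this marker change in the falls of the 10 genes in 14 d macrophages was not tested.

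In monocytes Ltc4s was far lower and uneven, at 2.28, 4.73, 30.4 and 12.6 CPM in controls, 1.90, 0.536, 4.90 and 0.982 CPM at 3 d and 6.25, 12.5, 11.8 and 5.00 CPM at 14 d. Control samples 3 and 4 stood above the other controls. The same samples had 64.0 and 28.0 CPM of the alveolar macrophage marker Marco and 64.5 and 34.8 CPM of Krt79. Control samples 1 and 2 had 3.23 and 8.16 CPM of Marco and 2.40 and 4.62 CPM of Krt79. Without Chil3 the whole list summed to 568, 602, 1476 and 1542 CPM in control samples 1, 2, 3 and 4. Sample 4 was thus highest in this sum, and sample 3 in Ltc4s, Marco and Krt79. Ltc4s fell by 2.59 at 3 d on the log2 scale (SE 0.81, edgeR adjusted p = 0.0174), a call lost without control sample 3 and without control samples 3 and 4 together, when the difference was smallest at -0.82. Of the 10 alveolar macrophage markers 6 were called lower in 3 d monocytes and 4 were not called, beside 14.4% of all genes called lower. Without Chil3 the markers summed to 197 to 436 CPM at 3 d, against 568 to 1542 CPM in control monocytes, and none of the 10 was at 0. At 14 d samples 2 and 3, the higher in Ltc4s, had 39.1 and 21.2 CPM of Marco, against 8.71 and 9.87 CPM in samples 1 and 4. Krt79 did not split the samples in this way, with 2.18, 5.96, 1.81 and 4.79 CPM in 14 d samples 1, 2, 3 and 4. The markers without Chil3 summed to 419, 790, 763 and 685 CPM in the same order. The study describes a monocyte sort from which resident alveolar macrophages were gated out beforehand. The part of this RNA in the Ltc4s result was not tested beyond those omissions. At 14 d the difference from control was -0.50 (SE 0.75, edgeR adjusted p = 0.754), but 0.44 without control sample 3 and 1.355 without control samples 3 and 4, neither of them called. Its direction thus depended on control sample 3, and the 14 d to 3 d call (2.09, SE 0.80, adjusted p = 0.0449) held in 7 of 20 alternatives.

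Alox15 rose in both cell types, from close to nothing. Macrophage controls had 0.0684, 0.455, 1.11 and 0 CPM, which are 1, 6, 17 and 0 counts. The 3 d macrophages had 7.87, 3.57 and 6.15 CPM and the 14 d macrophages 87.0, 27.6 and 134 CPM. The groups did not overlap and each was higher than the one before, and sample 2 was the lowest of its group at both times. At 14 d Alox15 was higher than control by 7.62 on the log2 scale (SE 0.85, edgeR adjusted p = 0.00011) and than 3 d by 3.82 (SE 0.73, adjusted p = 0.0025), called in each of 18 alternatives. The 3 d difference of 3.797 (SE 0.91, adjusted p = 0.102) was not called.

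Monocytes had 0.248, 0.215, 0.482 and 0.569 CPM of Alox15 in controls, 1.33, 0.491, 4.42 and 2.24 CPM at 3 d and 7.13, 4.68, 5.16 and 9.59 CPM at 14 d. Only 3 d sample 2 reached into the control range, and the 14 d samples lay above all others. The log2 change was 2.45 at 3 d (SE 0.58, edgeR adjusted p = 0.0038) and 4.10 at 14 d (SE 0.60, adjusted p = 0.00057), both called in each of 21 alternatives. Of 5 eosinophil markers 1 had enough counts to be tested in monocytes, and it was called higher at 3 d (log2 change 1.58) and not called at 14 d (-1.65). Their sum was 1.45 to 2.41 CPM at 3 d, above all controls (0.447 to 1.33 CPM), and 0.266 to 0.886 CPM at 14 d, when Epx and Prg3 were at 0 and Alox15 was highest. The part of eosinophil RNA in the 3 d change was not tested.

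In 14 d macrophages, by contrast, eosinophil markers moved with Alox15. Of 5 listed, 4 were tested and all 4 were called higher, with a sum of 29.0 to 107 CPM against 0.730 to 1.97 CPM in controls and 1.94 to 3.02 CPM at 3 d. Prg2, which encodes the eosinophil major basic protein, had 76.8, 18.3 and 82.3 CPM in 14 d samples 1, 2 and 3, so the sample lowest in Alox15 was also the lowest in Prg2, while at 3 d Alox15 had 3.57 to 7.87 CPM with Prg2 at 0.215 to 0.698 CPM. Eosinophils carry Siglec-F as well as CD11b, and the labelled gate is SigF+CD11b-. The transcript of CD11b itself, Itgam, had 102, 54.4 and 71.0 CPM in the 14 d macrophages against 0.730 to 2.66 CPM in controls. What part these cells had in the Alox15 level was not tested.

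**Figure D2:**
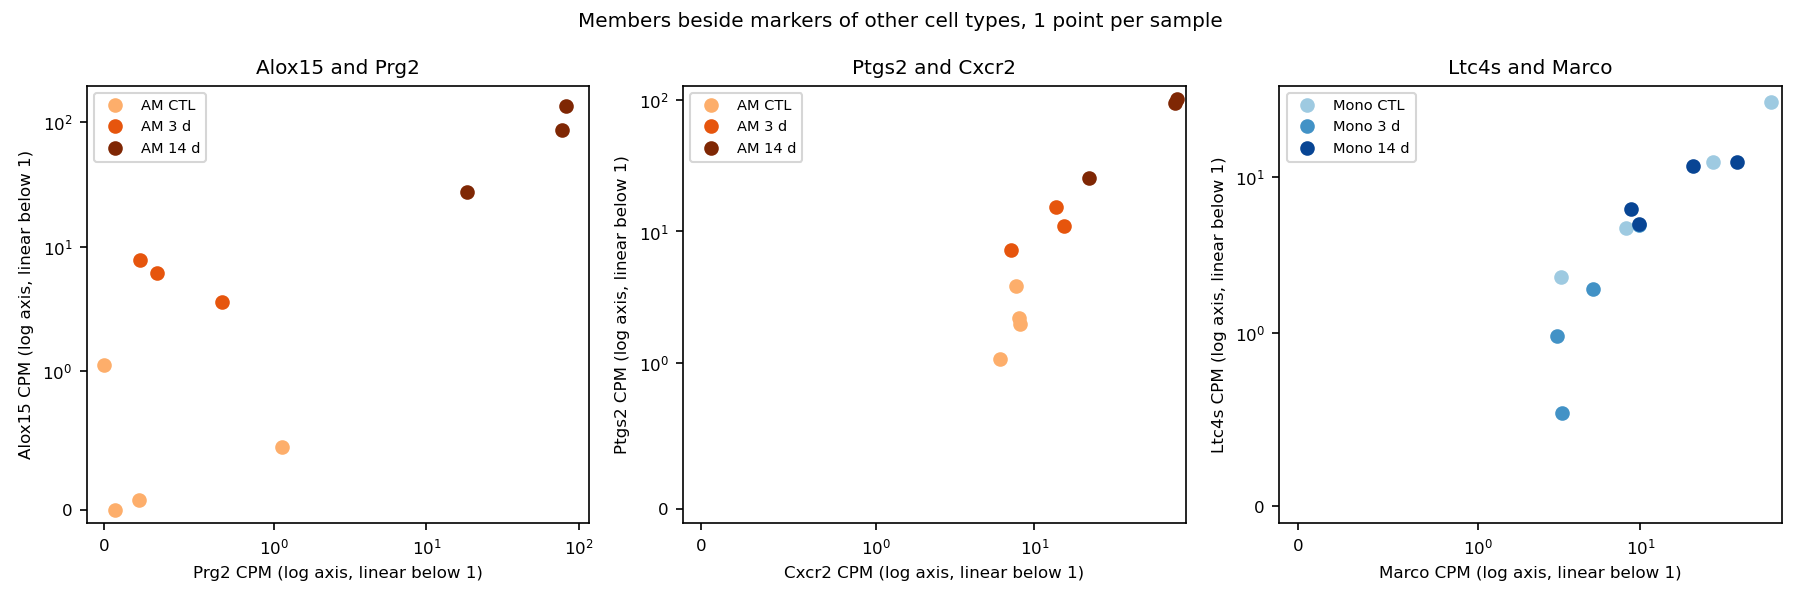
Levels of Alox15, Ptgs2 and Ltc4s (y axes, CPM) against a marker of another cell type in the same sample (x axes, CPM), with axes logarithmic above 1 CPM and linear below; each point is a sample. In macrophages the 14 d samples are high in both genes of the Alox15 and Prg2 pair and of the Ptgs2 and Cxcr2 pair, and in monocytes control sample 3 is highest in both Ltc4s (30.4 CPM) and Marco (64.0 CPM).

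The cyclooxygenase genes changed most in macrophages, where both rose at 14 d. Ptgs2, the inducible form, had 2.19, 3.87, 1.97 and 1.06 CPM in macrophage controls, 11.1, 7.29 and 15.4 CPM at 3 d and 95.1, 102 and 25.4 CPM at 14 d. The groups did not overlap, and 14 d sample 3 was well below the other two. The log2 change was 5.05 at 14 d (SE 0.56, edgeR adjusted p = 6.49e-05) and 2.74 from 3 d to 14 d (SE 0.55, adjusted p = 0.0025), both called in each alternative. At 3 d the difference of 2.31 (SE 0.56, adjusted p = 0.0945) was not called.

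Ptgs2 went the other way in monocytes. Controls had 60.4, 77.9, 19.6 and 40.8 CPM, 3 d samples 13.9, 16.9, 8.64 and 8.47 CPM and 14 d samples 11.9, 17.8, 23.3 and 22.2 CPM. All 3 d samples lay below all controls, and at 14 d samples 3 and 4 overlapped with control sample 3. Ptgs2 fell by 2.04 at 3 d (SE 0.38, edgeR adjusted p = 0.0012), called in each of 21 alternatives, and by 1.40 at 14 d (SE 0.37, adjusted p = 0.0274), called in 14 of 21. With the replicate number as a block the 14 d change was not called, and leaving out control sample 1 or 2 or 14 d sample 1, 2 or 3 also ended the call.

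Ptgs1, the constitutive form, rose in 14 d macrophages. Its levels were 11.7, 36.1, 14.0 and 7.63 CPM in controls, 13.5, 10.7 and 18.4 CPM at 3 d and 92.8, 95.7 and 46.2 CPM at 14 d. The 14 d samples lay above all others, and control sample 2 was above every 3 d sample. The log2 change was 2.19 at 14 d (SE 0.51, edgeR adjusted p = 0.0044) and 2.48 from 3 d to 14 d (SE 0.57, adjusted p = 0.0055), both called in each of 18 alternatives. In monocytes Ptgs1 had 30.5, 26.8, 22.01 and 7.89 CPM in controls, 26.2, 7.90, 22.9 and 19.1 CPM at 3 d and 30.1, 48.8, 34.9 and 34.8 CPM at 14 d. Control sample 1 overlapped with the 14 d samples, and no monocyte difference was called (0.77 at 14 d, SE 0.39, adjusted p = 0.262).

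Neutrophil markers moved with both cyclooxygenase genes in 14 d macrophages. Of 8 listed, 6 were tested, 5 called higher and 1 lower, with a sum of 278 to 812 CPM against 68.0 to 213 CPM in controls and 144 to 200 CPM at 3 d. Cxcr2, the neutrophil chemokine receptor, had 77.8, 79.5 and 22.2 CPM in samples 1, 2 and 3, the same sample being lowest as for Ptgs1 and Ptgs2, while at 3 d Cxcr2 had 7.13 to 15.4 CPM against 6.04 to 8.12 CPM in controls. In 14 d monocytes 1 of the 8 neutrophil markers was called higher (3.22% of all genes), 0 lower and 7 not called. Their sum was 661 to 1356 CPM there, against 198 to 285 CPM in control monocytes. S100a8 alone had 81.2 to 413 CPM in 14 d monocytes, against 7.57 to 70.8 CPM in control monocytes. Neutrophils carry CD11b, the labelled macrophage gate is CD11b-, and the study names Ly6G+ cells as gated out of the monocyte sort. The CD11b transcript Itgam, which is also one of the monocyte markers, had 102, 54.4 and 71.0 CPM in 14 d macrophage samples 1, 2 and 3. Controls had 0.730 to 2.66 CPM of it. Itgam was lowest in sample 2, and Cxcr2, Ptgs1 and Ptgs2 in sample 3. Fibroblast markers moved with the same samples, all 5 being called higher in 14 d macrophages (149 to 329 CPM summed, against 16.2 to 22.1 CPM in controls and 17.7 to 33.0 CPM at 3 d), with sample 3, the lowest in Ptgs1 and Ptgs2, the highest in their sum. The part of either cell type in the macrophage results was not tested.

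The ratio of Ptgs1 to Ptgs2, each per kilobase, does not depend on library scaling, and it was chosen after the values were seen. In control macrophages it was 6.30, 11.01, 8.37 and 8.48, so Ptgs1 was the more abundant. It was 1.43, 1.73 and 1.41 at 3 d and 1.15, 1.11 and 2.15 at 14 d, below every control. In monocytes it was 0.595, 0.405, 1.32 and 0.228 in controls, 2.21, 0.552, 3.12 and 2.66 at 3 d and 2.99, 3.23, 1.77 and 1.85 at 14 d. The macrophage samples after tamoxifen thus lay below all controls and the 14 d monocytes above all controls. In exact two-sided permutation tests of the log2 ratio against control the p-values were 0.0571 at both times in macrophages (the smallest that 3 against 4 samples allow), 0.0857 at 3 d and 0.0286 at 14 d in monocytes, and none of the 4 was below 0.0762 after adjustment.

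**Figure D3:**
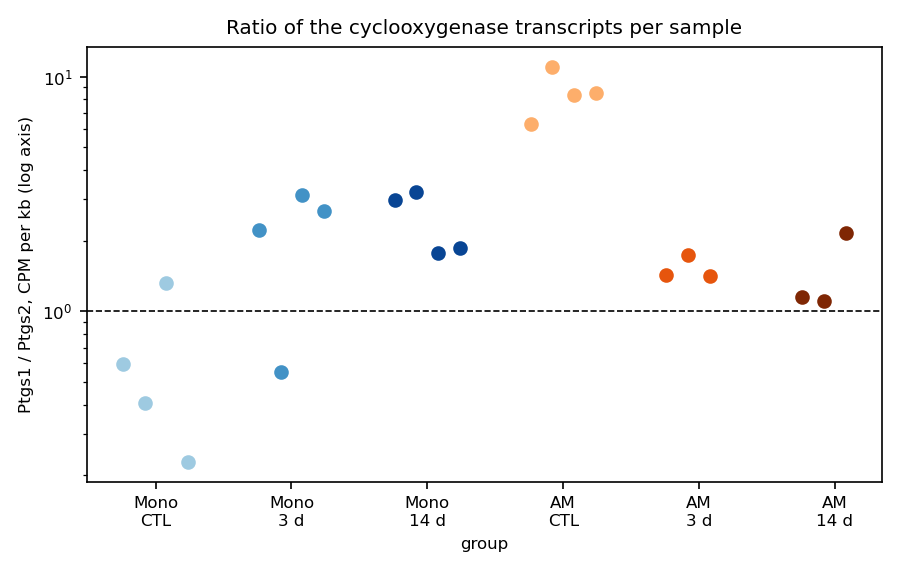
Ratio of Ptgs1 to Ptgs2 in CPM per kilobase of exon (y axis, logarithmic) for each sample by group (x axis), with a dashed line where the transcripts are equal. Control macrophages lie between 6.30 and 11.01 and 14 d macrophages between 1.11 and 2.15, while 3 of 4 control monocytes lie below the line and all 14 d monocytes above it.

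Of the terminal prostanoid synthases, Ptges and Tbxas1 fell in 14 d macrophages, and Hpgds rose in monocytes. Ptges, which makes prostaglandin E2, had 18.2, 14.5, 8.71 and 10.7 CPM in control macrophages, 6.37, 7.91 and 3.86 CPM at 3 d and 5.15, 9.72 and 3.69 CPM at 14 d. The 3 d samples lay below all controls and 14 d sample 2 within their range. Ptges fell by 1.04 at 14 d (SE 0.35, edgeR adjusted p = 0.0145), a call lost in 6 of 18 alternatives, among them leaving out control sample 1 or 14 d sample 3. In monocytes the 12 samples lay between 3.94 and 6.99 CPM with no call.

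Hpgds, which makes prostaglandin D2, had 0.828, 0.269, 1.29 and 1.22 CPM in control monocytes, 2.95, 2.99, 5.17 and 2.29 CPM at 3 d and 2.41, 2.51, 7.34 and 3.10 CPM at 14 d. All samples after tamoxifen lay above all controls. The log2 change was 1.88 at 3 d (SE 0.50, edgeR adjusted p = 0.0068) and 2.07 at 14 d (SE 0.50, adjusted p = 0.0175), and the 14 d call was lost without 14 d sample 3 (adjusted p = 0.0907). In macrophages the 10 samples lay between 3.49 and 7.23 CPM, with a log2 difference of 0.033 at 14 d (SE 0.32, adjusted p = 0.929). Hpgds is also made by mast cells, and of 10 mast cell and basophil markers 7 were tested in 3 d monocytes, 3 being higher and 1 lower, with a sum of 10.02 to 17.9 CPM against 11.2 to 39.9 CPM in controls, where Tpsb2 was at 0. At 14 d none of the 7 was higher and 1 was lower, with a sum of 1.65 to 4.23 CPM, below all controls. In macrophages 9 of these markers were tested, 5 being called higher at 3 d and 5 at 14 d, with 0 lower. Their list summed to 50.7 to 111 CPM at 3 d and 29.6 to 45.3 CPM at 14 d, against 5.01 to 14.5 CPM in control macrophages. The part of mast cell or basophil RNA in the levels of the 10 genes was not tested.

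Tbxas1, the thromboxane synthase, had 207, 207, 243 and 198 CPM in control macrophages, 189, 177 and 185 CPM at 3 d and 119, 143 and 152 CPM at 14 d. The groups did not overlap. Tbxas1 fell by 0.62 at 14 d (SE 0.13, edgeR adjusted p = 0.00081), but the call held in only 10 of 18 alternatives and was lost with DESeq2, with each other scaling and without control sample 3 or 14 d sample 1. In monocytes it had 91.7, 97.0, 93.7 and 47.1 CPM in controls, 57.3, 47.0, 89.9 and 90.1 CPM at 3 d and 109, 165, 150 and 123 CPM at 14 d. The 14 d samples lay above all others, and the 14 d to 3 d log2 difference was 0.94 (SE 0.26, adjusted p = 0.0099), lost with the other scalings but not with DESeq2. The platelet gene Pf4 had 54.7 to 128 CPM in the same 14 d monocytes against 6.21 to 9.92 CPM in controls. Of the 5 platelet markers tested, however, 1 was called higher at 14 d, 1 lower and 3 not called, with a median log2 change of -0.40. The part of platelet RNA in the Tbxas1 level was not tested.

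**Figure D4:**
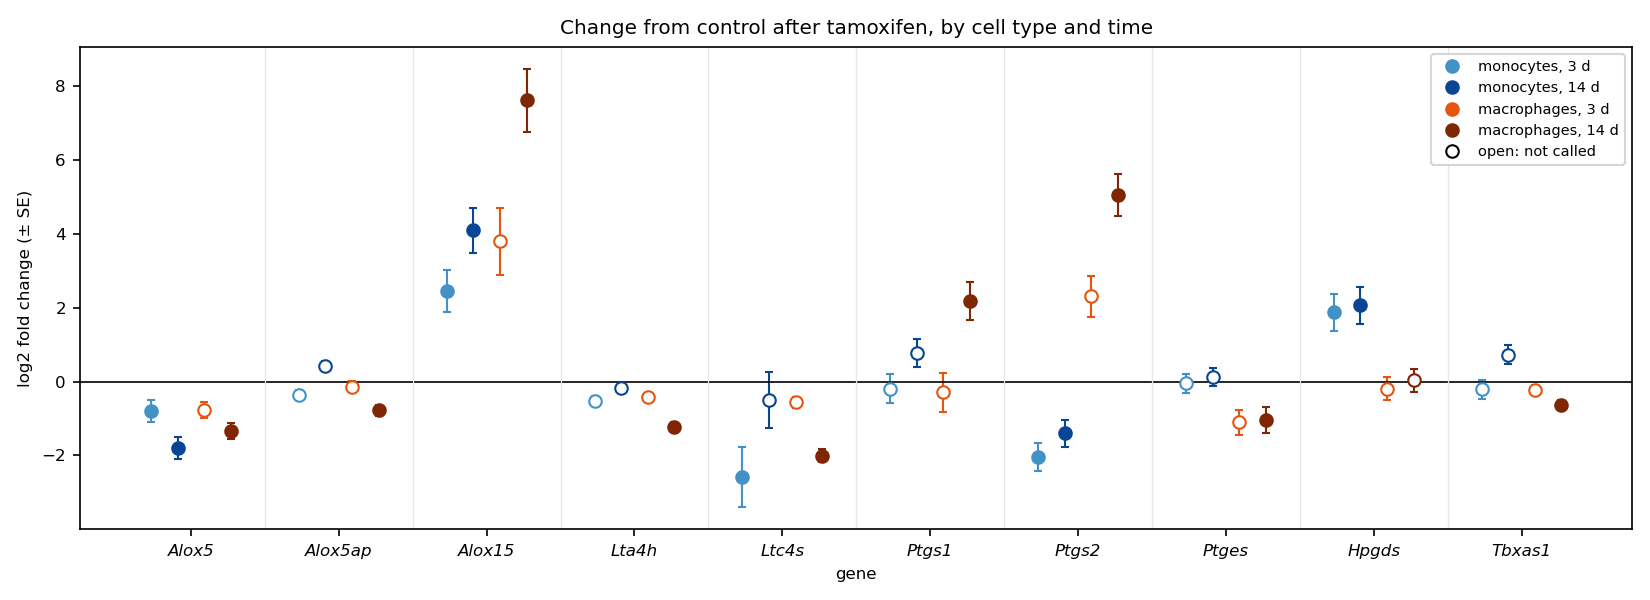
Log2 fold change from control (y axis, points with standard errors) of the 10 genes in monocytes and macrophages at 3 d and 14 d. Filled points passed both thresholds and open points did not. At 14 d the macrophage points of Alox15 (7.62), Ptgs2 (5.05) and Ptgs1 (2.19) stand above 0, and those of Ltc4s, Alox5, Lta4h, Ptges, Alox5ap and Tbxas1 below it.

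Whether the change from control differed between the cell types was tested as an interaction over all 22 samples. At 3 d 1 of the 10 genes responded more positively in macrophages (3.51% of 26692 genes) and 2 more negatively (15.2%). Ptgs2 differed by 4.19 on the log2 scale (SE 0.68, edgeR adjusted p = 0.00084), and Hpgds by -2.24 (SE 0.62, adjusted p = 0.0163). Ptges differed by -1.23 (SE 0.44, adjusted p = 0.0495), a call held in 11 of 30 alternatives.

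At 14 d 2 genes responded more positively in macrophages (16.9%) and 5 more negatively (19.9%). Ptgs2 differed by 6.11 (SE 0.68, edgeR adjusted p = 3.63e-06), the widest gap between the cell types among the 10 genes. Alox15 differed by 3.22 (SE 1.11, adjusted p = 0.0302), a call lost without monocyte control sample 3 or 4, macrophage control sample 1 or 4 or 14 d macrophage sample 3. Hpgds (-2.38, SE 0.62), Tbxas1 (-1.70, SE 0.31), Alox5ap (-1.56, SE 0.19), Ptges (-1.52, SE 0.44) and Lta4h (-1.39, SE 0.20) responded more negatively in macrophages. The difference was not called for Alox5 (0.090, SE 0.39, adjusted p = 0.882), Ltc4s (-1.85, SE 0.91, adjusted p = 0.116) or Ptgs1 (1.08, SE 0.65, adjusted p = 0.191). The scale of the joint fit moved the median of all genes by up to 0.85 (log2) in this comparison, and with TMM factors from abundant genes 4 members were called higher and 1 lower.

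**Figure D5:**
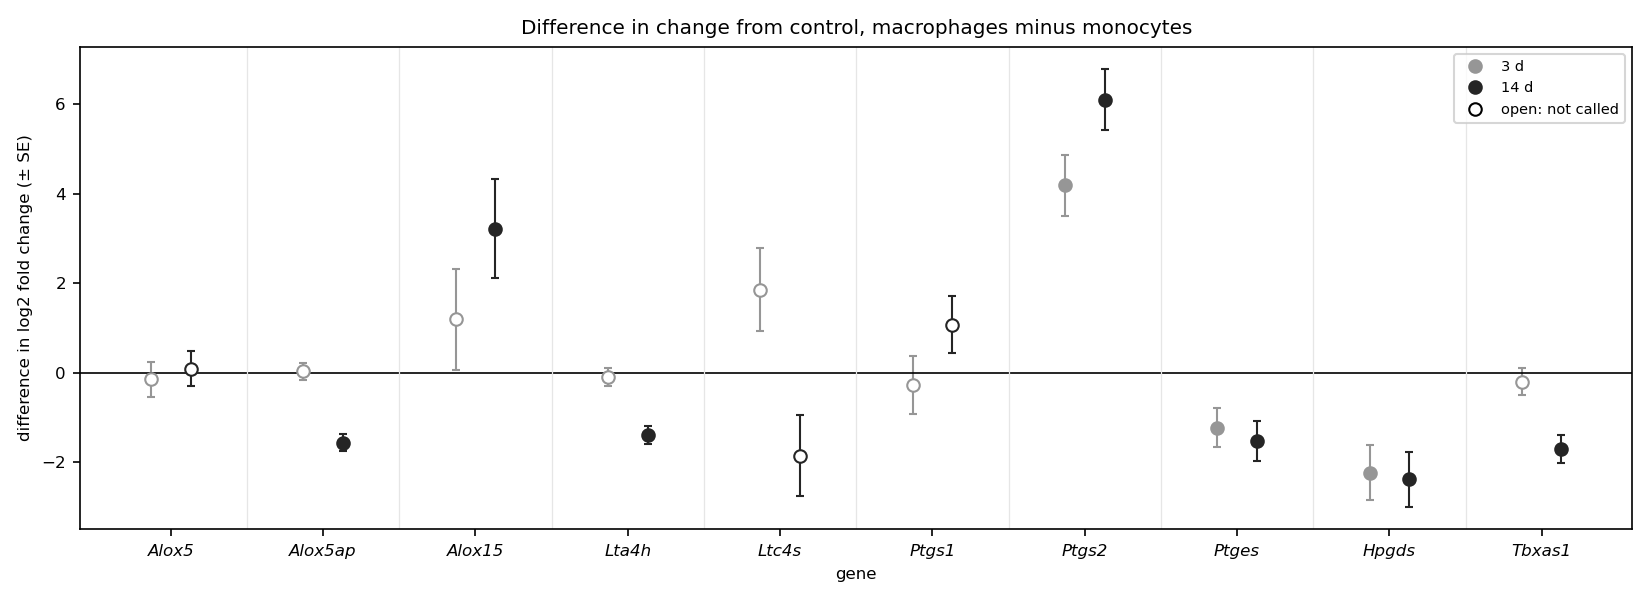
Difference between macrophages and monocytes in the log2 change from control (y axis, points with standard errors) for each gene at 3 d (grey) and 14 d (black), with open points for genes not called. Ptgs2 stands highest at both times (4.19 and 6.11), and Hpgds and Ptges lie below 0 at both.

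The wider eicosanoid pathway was followed in a list of phospholipases, other synthases, receptors, transporters and breakdown enzymes. In 14 d macrophages 22 of 48 tested genes rose and 11 fell, beside 39.4% and 22.9% of all genes. The most abundant of those called all fell: Pla2g15, a lysosomal phospholipase (-2.15, SE 0.17), Akr1b3, an aldose reductase (-1.42, SE 0.15), Mgll, which hydrolyses monoacylglycerols (-0.91, SE 0.13), Daglb, a diacylglycerol lipase (-0.74, SE 0.14), and Ptger1, a prostaglandin E2 receptor (-0.71, SE 0.15). At 3 d 2 of the 48 rose, Ptger3 (3.18, SE 0.73) and Alox8 (2.41, SE 0.57), and 1 fell, Pla2g15 (-0.84, SE 0.16), beside 1.05% and 0.224% of all genes. Ptger3 and Alox8 had low levels, with a mean log2 CPM of -0.87 and -0.74 over the macrophage samples. Their edgeR adjusted p-values, 0.0417 and 0.0499, were close to the threshold. From 3 d to 14 d 18 rose (36.3% of all genes) and 10 fell (20%).

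In monocytes 15 of 49 pathway genes rose at 3 d (36.8% of all genes) and 10 fell (14.4%). The abundant genes called at 3 d fell, among them Hpgd, which inactivates prostaglandins (-2.08, SE 0.38), Pla2g7, the platelet-activating factor acetylhydrolase (-1.25, SE 0.17), Fpr2, a receptor for lipoxins (-0.90, SE 0.20), and Cyp4f18, which inactivates leukotriene B4 (-0.67, SE 0.15). At 14 d 4 rose (3.22% of all genes) and 2 fell (5.34%). Ptgr1, which also inactivates leukotriene B4 (1.23, SE 0.24), Ptger2 (0.94, SE 0.19), Fpr2 (0.82, SE 0.20) and Abcc1, the leukotriene C4 exporter (0.68, SE 0.19), were higher, and Ptgir, the prostacyclin receptor (-1.23, SE 0.29), was lower. From 3 d to 14 d 10 rose (12% of all genes) and 12 fell (34.5%).

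Between the control cell types 16 of 51 pathway genes were higher in macrophages (24.5% of all genes) and 9 lower (19.7%). Pla2g7 (-8.50, SE 0.32) and Cyp4f18 (-2.64, SE 0.17) were lower there, and Pla2g15 (2.37, SE 0.18) and Fpr2 (2.15, SE 0.39) higher. The change from control was more positive in macrophages for 2 of the 51 genes at 3 d (3.51% of all genes) and more negative for 9 (15.2%). At 14 d it was more positive for 13 (16.9%) and more negative for 12 (19.9%).

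Genes whose log2 CPM followed a member most closely over the 22 samples were described for 6 of the 7 members with a mean log2 CPM above 3, out of 17443 genes. The samples fall into 6 groups and 2 cell types, so the points of such a correlation share their group and cell type. For Ltc4s they were Slc9a4 (Pearson r 0.978) and Atxn7l3 (0.978), for Alox5ap Tmem234 (0.989) and Ndufa10 (0.981), and for Lta4h Bnip3l (0.947) and Hsd17b4 (0.943). The cyclooxygenase genes had weaker likenesses, Ptgs1 with Gpr84 (0.826) and Fam20c (0.773) and Ptgs2 with Itgb3 (0.871) and Tpcn1 (0.859), of which Tpcn1 had 0.931 within macrophages and 0.186 within monocytes. Tbxas1 was nearest to Alas1 (0.871) and Atp6v0a1 (0.869).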

How the data were processed

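RNA from 12 monocyte and 10 macrophage samples was analysed. The authors deposited raw read counts per Ensembl gene, without normalization, as a table for each cell type. The submitters' processing notes name STAR 2.7.2c and 2.7.3a, featureCounts 1.6.3, DESeq2 1.26.0 and 1.28.1, GRCm38 and mm10, with no role or order, and strand use and annotation release are not given in the sources used here. Libraries were made with a NEBNext Ultra kit from oligo(dT) enriched RNA and read as pairs. Symbols, positions and exonic lengths came from GENCODE vM21 on GRCm38. No columns of unknown samples were present.

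The tests ran in edgeR 4.0.16 and limma 3.58.1 under R 4.3.3. Each cell type was fitted over its 3 groups by the robust quasi-likelihood test after filterByExpr and TMM scaling, and a joint fit of the 22 samples gave the differences between cell types. P-values are two-sided and adjusted by the Benjamini-Hochberg method over all genes tested, and a call needs an adjusted p under 0.05 and a fold above 1.5. CPM is the count over the library total times its TMM factor, and log2 CPM uses a prior count of 2. Alternatives were DESeq2 1.42.0, library totals, upper quartile scaling, TMM factors from abundant genes alone (mean log2 CPM over 5), no filter, a filter at a mean log2 CPM of 1, a fit restricted to the compared groups, a block for the replicate number, the adjusted p alone and each sample left out. Another scaling of the joint fit, by the factors of each cell type, and a fit without monocyte control samples 3 and 4 were added after the data were seen. The ratio of 2 genes was tested by an exact permutation test in SciPy. The tests across genes were also run on simulated counts, where only part of the planted changes were recovered, all with the right sign, and the limit set for that check was lowered after its result was seen.

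The 10 genes, the gene lists and the tests were chosen with earlier results of these data known. The text names the 10 genes, per comparison up to 5 called pathway genes with the highest mean level, and the 2 genes most like each member with a mean log2 CPM above 3. For Alox5 the latter are not reported here. Marker genes were named by list, and single markers after their values were seen. Samples of a group were compared for duplicates, with none found. In CPM, 3 counts amounted to 0.120 to 0.161 for monocyte libraries and 0.197 to 0.504 for macrophage libraries, a floor that covers counting error only.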

Additional observations from a re-analysis of the deposited data

Results flagged for a closer look

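Within groups of 4 samples, a value far from the other three was found in 2 of 40 gene and group pairs, close to the 1 in 20 that chance gives. Tbxas1 was 47.1 CPM in monocyte control sample 4, against 91.7 to 97.0 CPM in the other controls. Hpgds was 7.34 CPM in 14 d monocyte sample 3, against 2.41 to 3.10 CPM in the other 14 d samples, and leaving that sample out ended the 14 d call.

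The change from control differed between the cell types (macrophages minus monocytes, log2, interaction in the joint edgeR fit) for 3 genes at 3 d and 7 at 14 d. At 3 d the differences were 4.19 for Ptgs2, -1.23 for Ptges and -2.24 for Hpgds. At 14 d they were 6.11 for Ptgs2, 3.22 for Alox15, -1.39 for Lta4h, -1.52 for Ptges, -1.56 for Alox5ap, -1.70 for Tbxas1 and -2.38 for Hpgds.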

How the results depend on the processing

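The 47 called differences of the 10 genes kept their direction in all 1134 values from the alternatives run, and in 135 of these they were no longer called. The number of genes called fell from 7 to 4 in macrophages from 3 d to 14 d, and from 5 to 1 in monocytes from 3 d to 14 d, with library totals, upper quartile scaling, TMM factors from abundant genes and the filter at a mean log2 CPM of 1. In 3 d macrophages the count rose from 0 to 3 with DESeq2 (Alox15, Ptgs2 and Alox5) and to 1 with that filter, with only the compared groups and with the replicate block, and 6 of the 10 genes had an unadjusted p under 0.05. In 3 d monocytes it fell from 5 to 3 with the same filter and without control samples 3 and 4. With samples left out in turn it ran from 0 to 3 in 3 d macrophages (2 without 14 d sample 3 and 3 without 3 d sample 2), 5 to 8 in macrophages from 3 d to 14 d, 3 to 6 in 3 d monocytes (3 without control sample 3), 2 to 4 in 14 d monocytes (2 without 14 d sample 3) and 3 to 6 in monocytes from 3 d to 14 d (3 without 14 d sample 4). The cause of these changes was not tested.

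Whether replicate numbers pair the samples was not settled. Deviations of same-numbered samples correlated between -0.43 and 0.53, and in no pair of groups were all above 0.1. Between control and 14 d monocytes they ran from 0.011 to 0.53, against a mean of -0.107 for samples of unlike number. With the replicate block the genes called were 5 in 3 d monocytes, 3 in 14 d monocytes, 5 in monocytes from 3 d to 14 d, 1, 9 and 7 in the macrophage comparisons in the same order, 6 between the control cell types, and 3 and 7 for the differences between cell types at 3 d and 14 d.

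Of the 43 differences that were not called, 38 of 1016 alternative values were called and 86 changed sign without a call. The log2 differences that changed sign are given here. With library totals they were Alox15 0.14 between the control cell types, Alox5ap -0.26 in the 3 d difference between cell types, Alox5ap 0.13, Ptges 0.45, Ptgs1 0.32, Tbxas1 0.30 in 3 d monocytes, Hpgds -0.22, Lta4h -0.042, Ptges -0.20 in monocytes from 3 d to 14 d and Tbxas1 0.028 in macrophages from 3 d to 14 d. With upper quartile scaling they were Alox5ap -0.018 in the 3 d difference between cell types, Alox5ap 0.036, Ptges 0.33, Ptgs1 0.17, Tbxas1 0.18 in 3 d monocytes and Hpgds -0.24, Lta4h -0.079, Ptges -0.22 in monocytes from 3 d to 14 d. With TMM factors from abundant genes they were Alox5ap -0.25 in the 3 d difference between cell types, Alox5ap 0.17, Ptges 0.47, Ptgs1 0.34, Tbxas1 0.33 in 3 d monocytes, Hpgds -0.30, Lta4h -0.12, Ptges -0.28 in monocytes from 3 d to 14 d and Tbxas1 0.095 in macrophages from 3 d to 14 d. With the filter at a mean log2 CPM of 1 they were Alox5ap -0.13 in the 3 d difference between cell types, Hpgds -0.15, Ptges -0.15 in monocytes from 3 d to 14 d and Ptges 0.28, Ptgs1 0.14, Tbxas1 0.13 in 3 d monocytes. Without a filter on low counts they were Alox5 0.030, Lta4h 0.078, Tbxas1 0.0084 in the 3 d difference between cell types, Hpgds -0.010, Ptges -0.18 in macrophages from 3 d to 14 d and Hpgds -0.18 in 14 d macrophages. With each cell type's own factors they were Alox5 0.053, Lta4h 0.10 in the 3 d difference between cell types. With the replicate block they were Alox15 0.43 between the control cell types. With DESeq2 they were Ptges 0.076 in 3 d monocytes. With only the compared groups they were Ptges 0.016 in 3 d monocytes. Without monocyte control samples 3 and 4 they were Alox15 0.37 between the control cell types and Ltc4s 1.355, Ptges -0.087 in 14 d monocytes. With samples left out in turn they ran from Alox15 -1.56 to 0.15 between the control cell types, Alox5 -0.19 to 0.29 in the 14 d difference between cell types, Alox5 -0.43 to 0.24, Alox5ap -0.019 to 0.33, Lta4h -0.16 to 0.22, Ptgs1 -0.53 to 0.33, Tbxas1 -0.36 to 0.078 in the 3 d difference between cell types, Hpgds -0.17 to 0.38, Ptges -0.47 to 0.25 in macrophages from 3 d to 14 d. The others ran from Hpgds -0.36 to 0.22 in 14 d macrophages, Hpgds -0.34 to 0.40, Ptges -0.0059 to 0.29 in monocytes from 3 d to 14 d, Ltc4s -0.84 to 0.44, Ptges -0.0032 to 0.29 in 14 d monocytes, Ptges -0.18 to 0.12, Ptgs1 -0.45 to 0.10 in 3 d monocytes, Ptgs1 -0.51 to 0.35 in 3 d macrophages.

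Depth limits Alox15 in the controls, whose libraries held 0 to 17 counts in macrophages and 4 to 14 in monocytes, and the 14 d macrophages had the fewest counts in all.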
